A study of Mus musculus with 18 samples.

Results

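The 3 Runx transcription factors and their common partner Cbfb were followed through RNA-seq of mouse embryonic limb buds. The genes were taken by symbol (Runx1, Runx2, Runx3 and Cbfb), which gave 4 genes of the 14686 listed in any of the 3 deposited tables. Runx1, Runx2 and Cbfb were listed in every table, and Runx3 was listed in the e11.5 table alone. A table lists the genes that exceeded 0.5 CPM (read counts scaled to a library total of 1000000) in at least 3 of its libraries, so Runx3 was not analysed in the other 2 tables.

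The study compared hindlimb with forelimb buds of matched morphology, and hindlimb buds labelled null for Pitx1, a homeodomain factor of the hindlimb, with wild type ones. Each of the 6 groups had 3 libraries. The first comparison set wild type CD1 hindlimbs at e11.0 against wild type CD1 forelimbs at e10.5. The others set Pitx1 null hindlimbs on the BALB/c strain against BALB/c wild type hindlimbs, once at e11.0 and once at e11.5. The labels do not describe the null allele, the number of embryos behind a library, or whether replicates came from separate litters, so p-values speak only of the variation among these libraries, part of which can be technical.

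Runx proteins bind DNA through the Runt domain, and Cbfb, which does not contact DNA itself, binds that domain and raises its affinity for the site. Runx1 is required for the emergence of blood stem cells, Runx2 for the formation of osteoblasts and for the hypertrophy of cartilage cells, and Runx3 for proprioceptive sensory neurons and for some lymphocytes. In the mouse limb, Runx2 comes on in mesenchyme that condenses into skeletal elements, long before bone is laid down. Runx genes are transcribed from a distal and a proximal promoter, and the product can bind Runx sites in its own promoters.

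RefSeq promoter windows (GRCm38.p6, from 250 bases before to 50 bases after a start site) were found for all 4 genes, 6 windows in all. The most upstream windows of Runx1, Runx2 and Runx3 held one identical run of 18 bases, which contains the core Runx site AACCACA 2 times. These stretches are shown, with the shared run in capitals, because the 3 genes carry the site that their own products recognise:
Runx1, chr16:92826025-92826054, minus strand: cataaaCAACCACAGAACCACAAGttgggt
Runx2, chr17:44814583-44814612, minus strand: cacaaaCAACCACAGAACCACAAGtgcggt
Runx3, chr4:135120503-135120532, plus strand: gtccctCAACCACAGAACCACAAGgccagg
The run began 27 bases into the RefSeq transcript of Runx1 and 22 bases into that of Runx2, counting the start site as base 1, and at position -136 from the start site of Runx3. It was found, on either strand, in 4 of 32544 distinct windows (0.0123%). The windows of the 3 Runx genes were bound to be among them, since the run was taken as the longest stretch these windows share. The other window belonged to Gm16225 and overlapped that of Runx3 by 232 bases.

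Runx2, the member that differed in all 3 comparisons, had a further core site before its RefSeq start, at a place that lies inside the gene as GENCODE M21 draws it. It is shown with AACCACA in capitals:
Runx2, chr17:44814691-44814720, minus strand: tgtgaggtcacaAACCACAtgattctgtct
The 3 core sites of Runx2 began at positions -81, 23 and 31. AACCACA on either strand was present in 1720 of the 32544 windows (5.29%), and 66 windows (0.203%) held 2 or more. The distal windows of Runx1 and Runx3 held 2 each, and the second windows of Runx1 and Runx3 and the Cbfb window held 0. TAATCC, a site that Pitx proteins bind, was in 2298 windows (7.06%) and in none of these 6, which says only that these letters are not in these windows. The deposited values are per gene and do not separate transcripts of the 2 promoters.

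On GRCm38 (GENCODE M21), Runx1 (ENSMUSG00000022952) lies on chromosome 16 at 92601466 to 92826149, minus strand, and Runx2 (ENSMUSG00000039153) on chromosome 17 at 44495987 to 44814797, minus strand. Runx3 (ENSMUSG00000070691) lies on chromosome 4 at 135120652 to 135177990, plus strand, and Cbfb (ENSMUSG00000031885) on chromosome 8 at 105170674 to 105217989, plus strand. All 4 are protein coding. Levels between genes are compared below per kilobase of annotated exon, which came to 12025 bases for Runx1, 8837 for Runx2, 5003 for Runx3 and 3480 for Cbfb.

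Libraries held 17381522 to 53611914 reads on listed genes, read from the steps between CPM values, and 1 read was worth 0.0187 to 0.0575 CPM. Pitx1 was at 183 to 223 CPM in CD1 hindlimbs and 0.266 to 0.462 CPM in CD1 forelimbs. It was at 19.3 to 22.9 CPM in null hindlimbs and 114 to 136 CPM in wild type hindlimbs at e11.0, and at 72.1 to 88.6 CPM in null hindlimbs and 319 to 365 CPM in wild type hindlimbs at e11.5. Pitx1 RNA was thus lower but still present in the null libraries, and values per gene do not show from which part of it. Prrx1, which defines limb mesenchyme, was at 315 CPM or more in every library. Replicate 3 of each group came from another sequencing run than replicates 1 and 2, or from one the titles do not name, so the run was a term in every fit. The e11.5 libraries were enriched for mRNA and the others depleted of ribosomal RNA, per the labels, and each table was normalized separately, so levels from different tables stand side by side without a test.

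Runx2 was the member that differed in every comparison, and it was lower in CD1 hindlimb buds than in CD1 forelimb buds and lower in Pitx1 null than in wild type hindlimb buds. Runx1 was lower in Pitx1 null hindlimbs at e11.5 and did not pass the test in the other 2 comparisons. Neither Runx3, in its single table, nor Cbfb passed the test. With replicate 3 included, these calls needed the run term: without it Runx2 had adjusted p of 0.194, 0.489 and 0.138 in CD1, at e11.0 and at e11.5, and Runx1 had 0.0848 at e11.5 (limma). Replicates 1 and 2 alone, which share a run, kept each of these calls except that of Runx2 at e11.0.

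**Figure D1:**
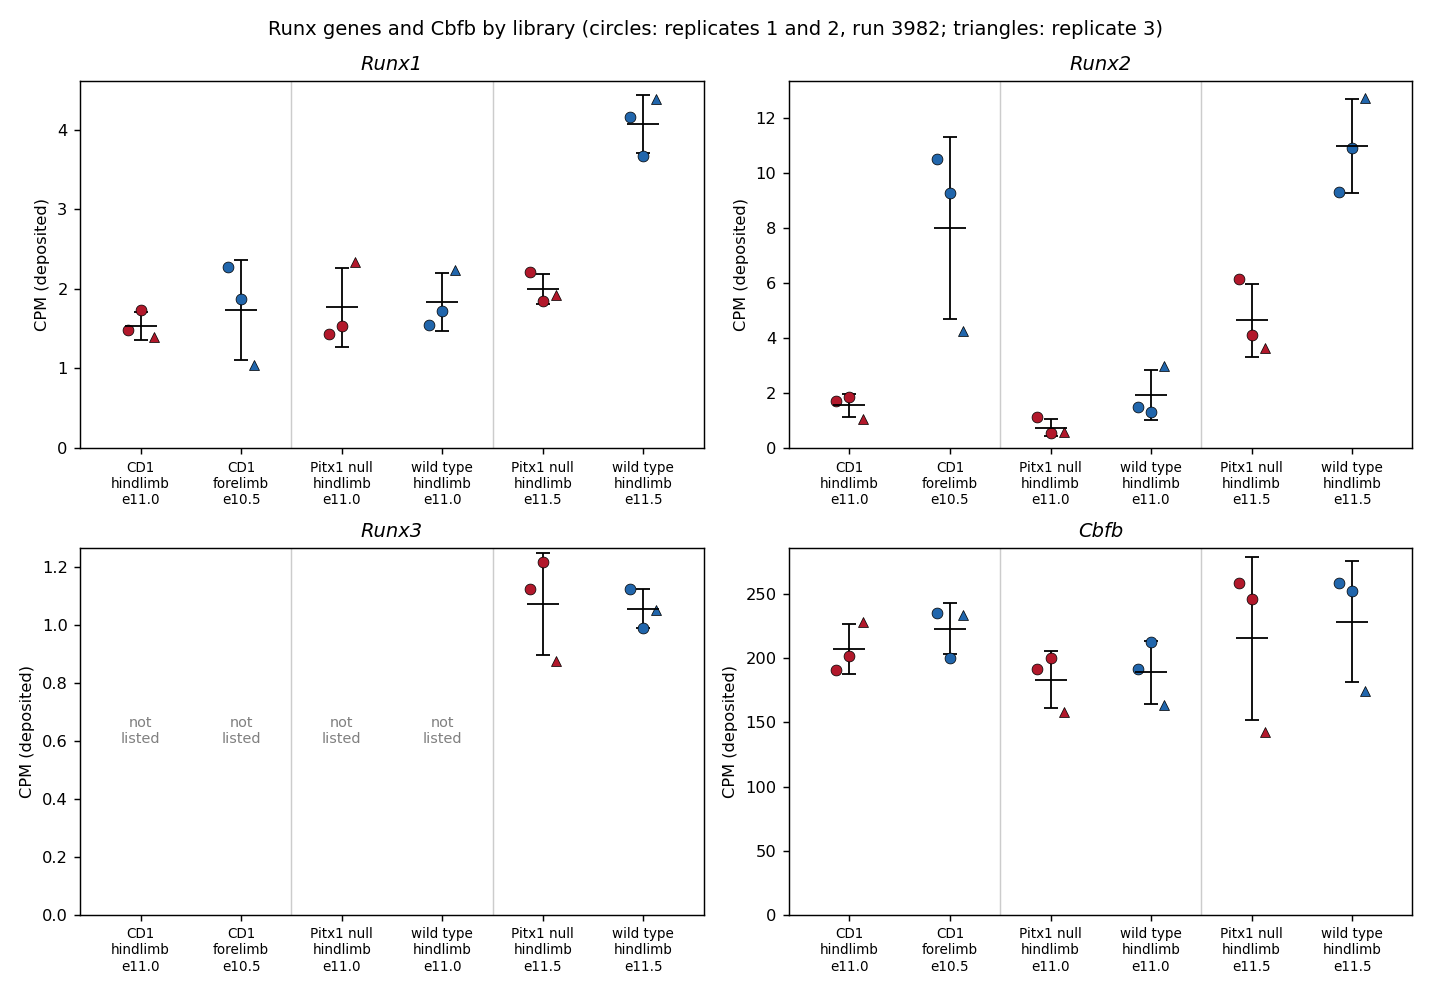
Deposited CPM of Runx1, Runx2, Runx3 and Cbfb (vertical axes, linear from 0) in every library of the 6 groups. Circles are replicates 1 and 2 (the run they share), triangles are replicate 3, bars are the mean ± SD (n = 3), and grey lines part the 3 tables. For Runx2 the libraries of the first group sit below all those of the second in each pair, while Cbfb overlaps in every pair. The share of all genes that part in this way was not counted.

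In the CD1 comparison, Runx2 stood at 1.72, 1.85 and 1.07 CPM in hindlimb replicates 1, 2 and 3, from 51, 47 and 30 implied reads. Forelimb replicates 1, 2 and 3 had 10.51, 9.26 and 4.26 CPM, from 273, 227 and 192 implied reads. All 3 hindlimb libraries lay below all 3 forelimb libraries, and replicate 3 was the lowest of its group on both sides. How many of all genes part without overlap was not counted, here or in the null comparisons, so such gaps are descriptions. Runx2 averaged 1.55 ± 0.419 CPM in hindlimbs and 8.01 ± 3.31 CPM in forelimbs (SD, n = 3 each), 5.17-fold lower in hindlimbs. On the log2(CPM + 1) scale, which understates the change of low genes, the difference was -1.76 ± 0.13 (SE; 95% interval -2.06 to -1.46; limma, adjusted p = 7.99e-05), the 15th largest of 13540 genes in either direction. Within the run shared by replicates 1 and 2 it was -1.96 (limma, adjusted p = 0.000300).

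Runx1 had 1.49, 1.73 and 1.39 CPM in hindlimb replicates 1, 2 and 3, against 2.27, 1.88 and 1.04 CPM in forelimb replicates 1, 2 and 3. The groups overlapped, with the highest and the lowest library both from forelimbs. The difference was -0.08 ± 0.13 on the log2 scale (95% interval -0.38 to 0.22; limma, adjusted p = 0.764). Cbfb averaged 207 ± 19.5 CPM in hindlimbs and 223 ± 20.1 CPM in forelimbs (SD, n = 3 each), a difference of -0.11 ± 0.06 (95% interval -0.25 to 0.04; limma, adjusted p = 0.361). Of the 3 members listed, 1 was called lower and 0 higher, against 3.46% of all 13540 genes called lower and 2.41% called higher. Limb and stage cannot be told apart here, since every hindlimb was at e11.0 and every forelimb at e10.5. In bulk tissue, fewer cells of a type and less RNA per cell cannot be told apart either.

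At e11.0, Runx2 was low in all hindlimbs of the BALB/c strain and lower in the Pitx1 null libraries. Null replicates 1, 2 and 3 had 1.12, 0.542 and 0.566 CPM, from 21, 11 and 25 implied reads. Wild type replicates 1, 2 and 3 had 1.49, 1.32 and 2.99 CPM, from 29, 23 and 128 implied reads. The groups did not overlap, but null replicate 1 lay close to wild type replicate 2, and wild type replicate 3 stood above the other wild type libraries. Means were 0.741 ± 0.324 CPM in null and 1.93 ± 0.915 CPM in wild type hindlimbs (SD, n = 3 each), 2.61-fold lower in nulls. The difference was -0.72 ± 0.20 on the log2 scale (95% interval -1.16 to -0.29; limma, adjusted p = 0.0402).

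That call rested on few reads and on single libraries. Without wild type replicate 3 or null replicate 3 the difference was -0.41 (limma, adjusted p = 0.248 and 0.239), as it was within the run of replicates 1 and 2 (adjusted p = 0.243). Without null replicate 2 the adjusted p was 0.120, and without wild type replicate 1 it was 0.147, while the sign stayed negative in every case.

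Runx1 at e11.0 had 1.43, 1.53 and 2.33 CPM in null replicates 1, 2 and 3, against 1.54, 1.73 and 2.24 CPM in wild type replicates 1, 2 and 3. The groups overlapped throughout, and replicate 3 was the highest in both. The difference was -0.04 ± 0.12 (95% interval -0.31 to 0.22; limma, adjusted p = 0.817). Cbfb averaged 183 ± 22.2 CPM in null and 189 ± 24.7 CPM in wild type hindlimbs (SD, n = 3 each), a difference of -0.04 ± 0.07 (95% interval -0.19 to 0.10; limma, adjusted p = 0.656). Of the 3 members listed, 1 was called lower and 0 higher, against 8.41% of 14027 genes called lower and 4.73% called higher. Of all genes called here, 36.0% were higher in nulls, and this share was 75.8%, 76.7% and 63.4% after trimmed-mean, median-ratio and upper-quartile scaling and 65.1% with edgeR on whole reads. Under those scalings Runx2 stayed lower (-0.67, -0.67 and -0.69), with adjusted p just under the threshold of 0.05 (limma, 0.04935, 0.0492 and 0.04175).

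At e11.5 both Runx1 and Runx2 fell in Pitx1 null hindlimbs. Runx2 had 6.15, 4.13 and 3.66 CPM in null replicates 1, 2 and 3. In wild type replicates 1, 2 and 3 it had 9.31, 10.9 and 12.7 CPM. Every null library lay below every wild type library, and the widest gap between same-numbered libraries was in replicate 3. The means were 4.64 ± 1.33 CPM in null and 10.99 ± 1.72 CPM in wild type hindlimbs (SD, n = 3 each), 2.37-fold lower in nulls, with a log2 difference of -1.10 ± 0.17 (95% interval -1.48 to -0.73; limma, adjusted p = 0.0053). Within the run of replicates 1 and 2 it was -0.87 (limma, adjusted p = 0.0149).

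Runx1 had 2.22, 1.85 and 1.92 CPM in null replicates 1, 2 and 3, from 67, 70 and 103 implied reads. Wild type replicates 1, 2 and 3 had 4.16, 3.67 and 4.39 CPM, from 148, 137 and 233 implied reads. The groups were well apart, with the highest null library at 2.22 CPM and the lowest wild type library at 3.67 CPM. Means were 1.996 ± 0.193 CPM in null and 4.07 ± 0.368 CPM in wild type hindlimbs (SD, n = 3 each), 2.04-fold lower in nulls. The log2 difference was -0.76 ± 0.10 (95% interval -0.99 to -0.53; limma, adjusted p = 0.00295), and within the run of replicates 1 and 2 it was -0.70 (limma, adjusted p = 0.0172). Whether the Pitx1 effect on Runx1 differed between e11.0 and e11.5 was not tested.

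Runx3 had 1.12, 1.22 and 0.877 CPM in null replicates 1, 2 and 3, against 1.13, 0.990 and 1.05 CPM in wild type replicates 1, 2 and 3. The null libraries lay on both sides of the wild type ones. The difference was 0.0081 ± 0.10 (95% interval -0.22 to 0.24; limma, adjusted p = 0.967). Cbfb had 259, 246 and 142 CPM in null and 259, 253 and 174 CPM in wild type replicates 1, 2 and 3, so that replicate 3 was the lowest in both groups and the groups overlapped. Its difference was -0.11 ± 0.06 (95% interval -0.25 to 0.03; limma, adjusted p = 0.258). Of the 4 members, 2 were called lower and 0 higher, against 7.96% of 13478 genes called lower and 2.83% called higher. Of all genes called, 26.3% were higher in nulls, and 45.1%, 44.7% and 27.9% after trimmed-mean, median-ratio and upper-quartile scaling and 42.1% with edgeR on whole reads.

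**Figure D2:**
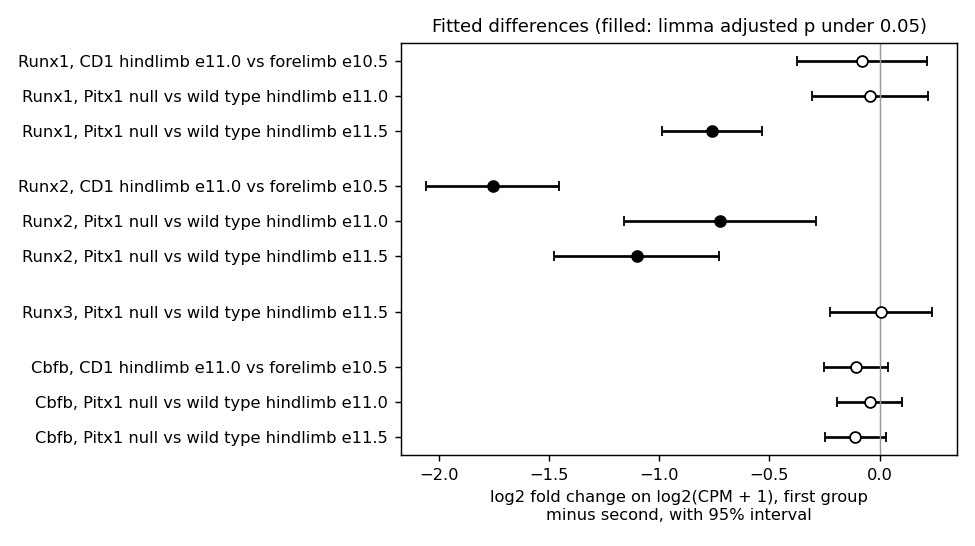
Fitted difference of each member in each comparison it was listed in (horizontal axis, log2 fold change on log2(CPM + 1), first named group minus second), with its 95% interval as a bar. Filled points passed limma's adjusted p of 0.05: Runx2 in all 3 comparisons (-1.76, -0.72 and -1.10) and Runx1 at e11.5 (-0.76).

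The authors' deposited table, made with edgeR, gave Runx2 log2 fold changes of -2.36 in CD1, -1.65 at e11.0 and -1.34 at e11.5, with adjusted p of 2.72e-49, 2.53e-05 and 7.68e-13. These are larger than the values above, which carry a pseudocount of 1 CPM. The edgeR quasi-likelihood test on the whole reads behind the CPM, with the run as a term, gave Runx2 -2.35 in CD1 (adjusted p = 2.14e-05), -1.50 at e11.0 (adjusted p = 0.0199) and -1.25 at e11.5 (adjusted p = 0.0052), and Runx1 -1.01 at e11.5 (adjusted p = 0.00296). No other member passed in it. For Runx1 the authors' deposited table gave -0.13 (adjusted p = 0.772), 0.05 (adjusted p = 0.885) and -1.01 (adjusted p = 5.59e-10) in the same order. Runx3 and Cbfb did not pass 0.05 in the authors' deposited table in any comparison.

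Across the 6 groups, mean Runx2 was highest in wild type hindlimbs at e11.5, then in CD1 forelimbs, null hindlimbs at e11.5, wild type hindlimbs at e11.0, CD1 hindlimbs and null hindlimbs at e11.0. In this order of CPM levels the ranges of neighbours overlapped except between null hindlimbs at e11.5 (lowest 3.66 CPM) and wild type hindlimbs at e11.0 (highest 2.99 CPM). Runx1 had a single gap, between wild type and null hindlimbs at e11.5, and the other 4 groups followed with means of 1.54 to 1.84 CPM and overlapping ranges. Cbfb ran between group means of 183 and 229 CPM, with every pair of neighbours overlapping. Tables and library preparation differ along these orders.

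Per kilobase of exon, Runx2 exceeded Runx1 in 16 of 18 libraries. This count depends on the annotated exon lengths. Undivided CPM put Runx1 above Runx2 in all null libraries at e11.0, wild type replicates 1 and 2 at e11.0 and CD1 hindlimb replicate 3. The summed Runx level holds Runx1 and Runx2 in CD1 and at e11.0, where Runx3 was not listed, and all 3 genes at e11.5, so shares are compared within a table only. In CD1 hindlimbs the Runx2 share was 61.2%, 59.2% and 51.1% in replicates 1, 2 and 3, against 86.3%, 87.0% and 84.7% in forelimbs. The shares did not overlap, and the summed Runx level was 0.303 ± 0.0599 CPM per kb in hindlimbs and 1.05 ± 0.426 CPM per kb in forelimbs (SD, n = 3 each). In null hindlimbs at e11.0 Runx2 held 51.4%, 32.6% and 24.8% in replicates 1, 2 and 3, against 56.8%, 51.1% and 64.5% in wild type hindlimbs. Here the ranges touched, null replicate 1 lying above wild type replicate 2, and null replicates 2 and 3 were the libraries in which Runx1 exceeded Runx2 per kilobase.

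At e11.5, with Runx3 listed, Runx2 held 63.0%, 54.0% and 55.3% of the Runx sum in null replicates 1, 2 and 3, against 64.9%, 71.1% and 71.5% in wild type replicates 1, 2 and 3. Runx3, with a level that did not pass the test, held 20.3% to 28.1% in nulls and 10.4% to 13.8% in wild type hindlimbs, while the Runx sum was 0.906 ± 0.182 CPM per kb in nulls and 1.79 ± 0.202 CPM per kb in wild type (SD, n = 3 each). Runx1 held 16.7% to 21.3% in nulls and 17.5% to 21.3% in wild type. These shares are descriptions and were not tested.

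**Figure D3:**
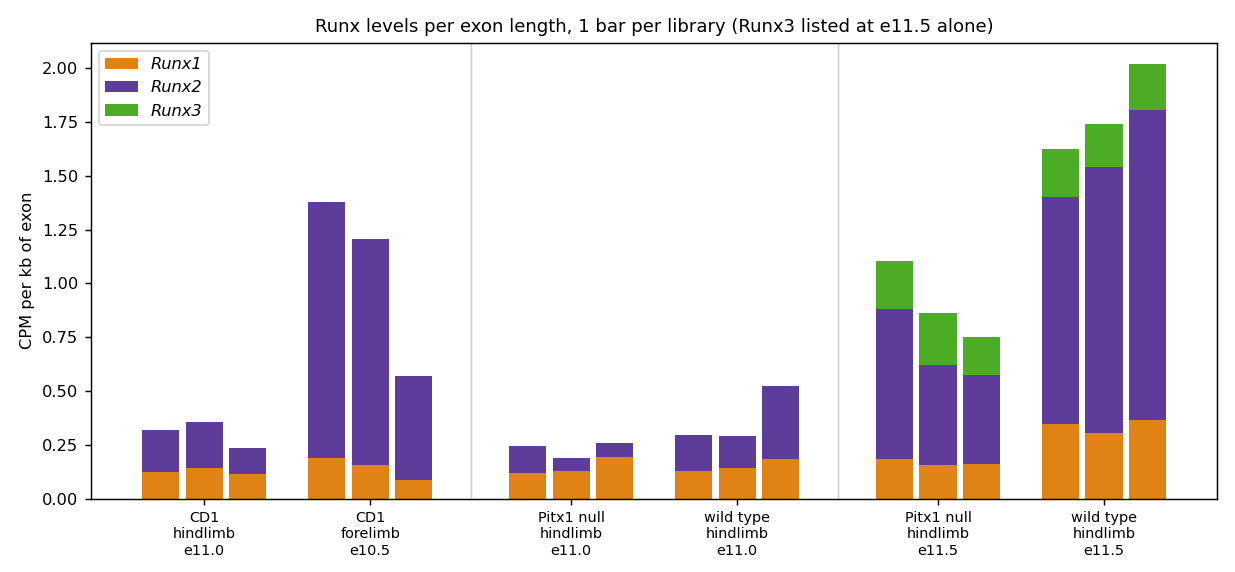
CPM per kb of exon of Runx1, Runx2 and Runx3, stacked, with 1 bar per library and replicates 1 to 3 from left to right in each group. The Runx2 block is short in CD1 hindlimbs and in null hindlimbs at e11.0 (means of 0.175 and 0.0839 CPM per kb) and tall in CD1 forelimbs and wild type hindlimbs at e11.5 (0.907 and 1.24 CPM per kb).

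Cbfb was far more abundant than the factors it binds. Per kilobase it exceeded the summed Runx level 205-fold in CD1 hindlimbs and 71.7-fold in forelimbs, 235-fold in null and 161-fold in wild type hindlimbs at e11.0, and 67.9-fold in null and 37.5-fold in wild type hindlimbs at e11.5 (means of 3 libraries each). The sum includes Runx3 at e11.5 alone, so the e11.5 ratios have another denominator than the rest. The Cbfb level was above that of about 93% of listed genes in each table (93.4%, 92.9% and 93.4%), against 20.7%, 4.97% and 25.3% for Runx2. These ratios are of RNA and not of protein.

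Neighbouring genes were read for each locus. Supt3, a subunit gene of the SAGA complex that overlaps Runx2 on the opposite strand, had log2 differences of -0.05, -0.08 and 0.0039 in CD1, at e11.0 and at e11.5 (limma, adjusted p = 0.770, 0.669 and 0.975). Its levels at e11.5 were 18.4 ± 1.90 CPM in null and 18.3 ± 1.09 CPM in wild type hindlimbs (SD, n = 3 each). Of the nearest listed neighbours, Clic6 and Setd4 beside Runx1, Enpp4 and Cdc5l beside Runx2, and Ciao2b and D230025D16Rik beside Cbfb did not pass the test in any comparison. Of Syf2 and Clic4, which flank Runx3, Clic4 passed once, at -0.28 in nulls at e11.0 (limma, adjusted p = 0.0431). The annotation also holds antisense genes over Runx1 (Gm26626), Runx2 (Runx2os1, Runx2os2, Runx2os3) and Runx3 (Gm16224), and whether counting used strand is not given in the sources used here.

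The genes most like each member were ranked by Pearson correlation on log2(CPM + 1) after taking out the mean of each table and run. Over 18 libraries and 12674 genes, Runx2 was most like Ebf2 (0.968), Eya4 (0.964) and Cdh2 (0.948). Ebf2 encodes a helix-loop-helix factor, Eya4 a transcriptional coactivator and Cdh2 N-cadherin. Ebf2 stood at 11.4 ± 0.317 CPM in CD1 hindlimbs and 24.7 ± 5.09 CPM in forelimbs (SD, n = 3 each), and differed by -1.03 (limma, adjusted p = 3.78e-04). In nulls it differed by -0.41 at e11.0 and -0.41 at e11.5 (limma, adjusted p = 0.0772 and 0.0491). Ebf2 was picked for its likeness to Runx2 in these same libraries, so its differences are not independent of those of Runx2.

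Runx1 was most like Ndnf (0.944), a secreted protein gene, Npr2 (0.944), a natriuretic peptide receptor required for cartilage growth, and Col9a3 (0.935), a cartilage collagen. At e11.5 these stood at 5.65 ± 1.55, 10.54 ± 3.06 and 5.07 ± 1.96 CPM in nulls, against 17.1 ± 3.24, 17.1 ± 6.38 and 18.7 ± 1.27 CPM in wild type hindlimbs (SD, n = 3 each). Cbfb was most like Zxdb (0.971), Lpar4 (0.945) and Dsel (0.938). Runx3, over 6 libraries only, was most like Cd9, Anapc16 and Coq10b (0.996, 0.991 and 0.990). Between members the value was 0.571 for Runx1 with Runx2, 0.645 for Cbfb with Runx1 and 0.639 for Cbfb with Runx2 (18 libraries). All these points share libraries and depth, and the group differences themselves enter the correlation.

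Genes of the Runx pathway were read from lists. For all list counts below, limma's shares over all genes were 3.46% lower and 2.41% higher in CD1. They were 8.41% lower and 4.73% higher at e11.0, and 7.96% lower and 2.83% higher at e11.5. The list counts also depend on the run term. Without it limma called 1 limb bud mesenchyme gene higher and 1 lower in CD1, and no other gene of any list in any comparison. All 19 cofactors of Runx proteins were listed in each table. In CD1, 0 of 19 were called higher and 0 lower by limma, with 3 at an unadjusted p under 0.05, leaving out forelimb replicate 1 gave 2 and 1, edgeR on whole reads called 0, and the authors' deposited table called 0 higher and 1 lower. At e11.0, 7 of 19 were lower in nulls and 0 higher, with a median log2 difference of -0.27 against -0.07 over all genes. They were Wwtr1 (-0.51), the coactivator TAZ, the histone deacetylase genes Hdac5 (-0.42) and Hdac6 (-0.26), Runx1t1 (-0.35), the corepressor ETO, the acetyltransferase gene Kat6a (-0.35), the corepressor gene Sin3a (-0.27) and Aes (-0.27), a short Groucho-family gene also named Tle5. This count was 2 under each of the 3 scalings, 3 with edgeR on whole reads and 13 with the replicate number as a block. It was 1 without null replicate 2 or 3 or wild type replicate 1 or 3, and 17 without wild type replicate 2.

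At e11.5, 4 of 19 cofactors were lower in nulls and 0 higher by limma, with a median of -0.14 against -0.02 over all genes. The higher count was 1 with edgeR on whole reads and under trimmed-mean or median-ratio scaling, and the authors' deposited table called 2 higher and 6 lower. The 4 that limma called lower were Runx1t1 (-0.42, 43.0 ± 8.69 CPM in null and 57.2 ± 2.50 CPM in wild type hindlimbs, SD, n = 3 each), Wwtr1 (-0.36), the acetyltransferase gene Kat6b (-0.28) and Cbfa2t3 (-0.28), a corepressor of the ETO family. This limma count of lower genes was 9, 0 and 1 without null replicates 1, 2 and 3, and 2 and 1 without wild type replicates 1 and 3. Tle1 to Tle4, encoding full-length Groucho corepressors that bind the Runx C-terminus, did not pass with limma in any comparison (adjusted p from 0.0665 to 0.813). Other settings called some of them: Tle3 at e11.0 (-0.32) had an adjusted p of 0.0198 with the replicate block and 0.0193 in the authors' deposited table. At e11.5 Tle1 (0.15) had 0.0369 with edgeR on whole reads and 0.0139 in the authors' deposited table, which also called Tle4 higher (adjusted p = 0.0194) and Tle2 lower (adjusted p = 0.00705).

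A second list held 19 genes known to act upstream of Runx2 or to modulate it. In CD1, 4 of the 17 listed were lower in hindlimbs and 2 higher. Msx2, a Bmp-responsive homeodomain factor, stood at 20.8 ± 1.76 CPM in hindlimbs and 37.3 ± 3.62 CPM in forelimbs (SD, n = 3 each; -0.81). Bmp7 (-0.26) and Twist1 (-0.23), whose protein restrains Runx2, were called lower but not with the replicate block (limma, adjusted p = 0.0722 and 0.0622). Hand2 (0.43), a helix-loop-helix factor of the posterior bud, and Hey1 (0.36), a Notch target, were higher. The lower count was 2 without any one of the hindlimb libraries or without forelimb replicate 3.

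At e11.0, 6 of 18 upstream genes were lower in nulls and 0 higher. Sox9, the factor that commits cells to cartilage, stood at 13.2 ± 1.62 CPM in null and 25.9 ± 4.04 CPM in wild type hindlimbs (SD, n = 3 each; -0.92; limma, adjusted p = 8.59e-04). Hand2 (-0.49), Hey1 (-0.44), Zfp521 (-0.43), a zinc finger antagonist of Runx2, Msx1 (-0.40) and Smad5 (-0.29) were the others. The count was 3 to 5 under the 3 scalings, 3 with edgeR on whole reads, 2 without null replicate 2, and 1 without null replicate 3 or wild type replicate 1 or 3.

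At e11.5 the upstream genes moved both ways, 4 of 18 higher and 3 lower in nulls. The genes called higher were Msx2 (41.4 ± 6.62 CPM in null and 29.1 ± 1.39 CPM in wild type hindlimbs, SD, n = 3 each; 0.48), Bmp7 (0.47), Bmp4 (0.37) and Msx1 (0.30), while Bmp2 had 0.33 (limma, adjusted p = 0.150). Sox9 was at 109 ± 35.2 CPM in null and 207 ± 6.20 CPM in wild type hindlimbs (SD, n = 3 each; -0.96; limma, adjusted p = 0.00551), and Zfp521 (-0.34) and Zfp423 (-0.27) were the other genes called lower. Without null replicate 1 the lower count was 5. Dlx5 and Dlx6 did not pass at either stage in the null comparisons.

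**Figure D4:**
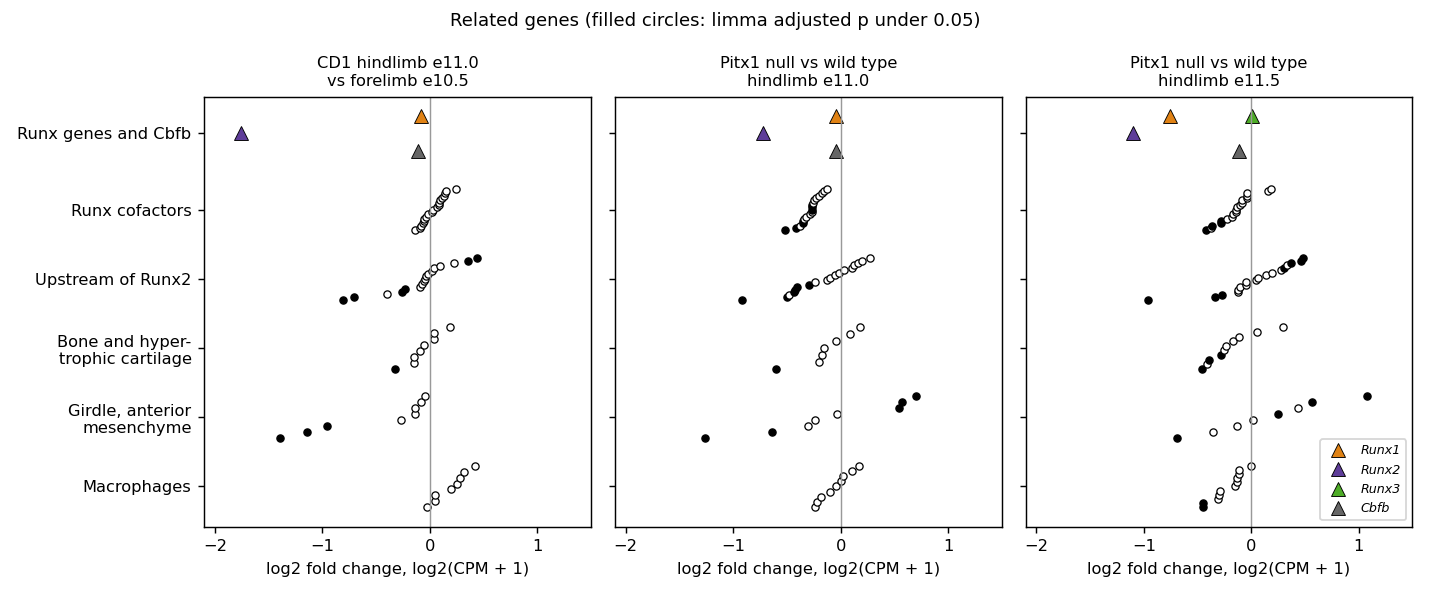
Log2 fold change (horizontal axis, log2(CPM + 1) scale) of each listed gene in 5 gene lists, with the Runx genes and Cbfb as triangles on top, 1 panel per comparison. Filled circles passed limma's adjusted p of 0.05. Runx2 lies left of every cofactor and upstream gene in the CD1 panel, where the lowest of these is Msx2 at -0.81.

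Genes of bone and hypertrophic cartilage, many of them Runx2 targets, were read next. Of 18 genes, 8 were listed in CD1, 7 at e11.0 and 10 at e11.5. Mmp14, a membrane-bound matrix protease, was the gene called lower in CD1 hindlimbs (-0.32), 1 of 8 against 3.46% of all genes. Col1a2, a chain of type I collagen, was the one called lower in nulls at e11.0 (-0.60), 1 of 7 against 8.41% of all genes. At e11.5, 3 were lower in nulls and 0 higher: Spp1 (0.587 ± 0.185 CPM in null and 1.18 ± 0.155 CPM in wild type hindlimbs, SD, n = 3 each; -0.46), the osteopontin gene, Mef2c (-0.39), a factor of hypertrophy, and Mmp14 (-0.29). Spp1 exceeded 0.5 CPM in 2 of 3 null libraries and all 3 wild type ones, so it was listed through the group where it was high. This count of 3 was 0 without replicate 3 of either group and 1 without null replicate 2, and the single calls in CD1 and at e11.0 were lost without hindlimb replicate 2 and without null replicate 3 or wild type replicate 1 or 3. Sp7, the osteoblast factor downstream of Runx2, had 1.81 ± 0.0375 CPM in null and 2.33 ± 0.282 CPM in wild type hindlimbs at e11.5 (SD, n = 3 each; -0.24; limma, adjusted p = 0.138).

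Markers of cells known for Runx1, the macrophages and blood progenitors, were read beside it. Over all genes, limma called 3.46% lower in CD1 hindlimbs, and 8.41% and 7.96% lower in nulls at e11.0 and e11.5. Of macrophage genes, limma called 0 of 8 in CD1 and 0 of 9 at e11.0, with 2 and 0 at an unadjusted p under 0.05, edgeR on whole reads called 0 in both, and the authors' deposited table called 2 higher in CD1 and 0 at e11.0. At e11.5, 2 of 11 were lower in nulls, Csf1r (7.22 ± 1.21 CPM in null and 10.2 ± 1.37 CPM in wild type hindlimbs, SD, n = 3 each; -0.45) and C1qa (-0.45). Their summed level was 31.3 to 38.8 CPM in null and 38.4 to 47.9 CPM in wild type hindlimbs, and the defining markers Ptprc (-0.15) and Tyrobp (-0.11) did not pass. The 2 calls were lost without any single library other than wild type replicate 1. Of blood progenitor genes, limma called 0 of 9 in CD1 (2 at an unadjusted p under 0.05, 0 by edgeR on whole reads, and 1 higher and 1 lower in the authors' deposited table), Kit and Cd34 (2 of 9) were lower in nulls at e11.0, and Kit (1 of 11, -0.29) was lower at e11.5, calls that each were lost without at least one single library. Their summed level at e11.5 was 239 to 274 CPM in null and 250.3 to 305 CPM in wild type hindlimbs. Such sums rest mostly on few genes and are not a measure of progenitor number. In CD1 hindlimbs, where the sum was 258.7 to 317.1 CPM, Meis1 averaged 143 CPM and Cd34 66.6 CPM, against 17.2 CPM for Tal1 and 2.38 CPM for Gata2. Endothelial genes were lower in nulls for 7 of 10 at e11.0 and for 1 of 10 (Cdh5, -0.21) at e11.5. The count of 7 was 4 to 5 under the 3 scalings, 5 with edgeR on whole reads and 0 with replicates 1 and 2 alone. It was 4, 1 and 0 without null replicates 1, 2 and 3 and 0 without wild type replicate 1 or 3. In CD1 hindlimbs 1 of 10, Erg (-0.36), was lower. The part of these cells in the Runx1 difference was not tested.

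Of 11 genes of sensory neurons, in which Runx3 is known to act, and of Schwann cells, 5 were listed in each table, and the defining receptor gene Ntrk3 was in none. Ntrk2 (-1.23) and Pou4f1 (-1.17) were lower in CD1 hindlimbs, where Pou4f1 exceeded 0.5 CPM in 2 of 3 libraries and so was listed through the forelimbs. Ntrk2 (-1.06) and Stmn2 (-0.37) were lower in nulls at e11.5, when their summed level was 20.5 to 22.1 CPM in null and 23.6 to 33.8 CPM in wild type hindlimbs. At e11.0 limma and edgeR on whole reads called 0 of 5, with 1 at an unadjusted p under 0.05 by limma, and the authors' deposited table called 1 higher.

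Genes of girdle and limb mesenchyme were read beside Runx2. Of 8 girdle and anterior genes, Pax1 (2.68 ± 1.46 CPM in hindlimbs and 9.38 ± 5.53 CPM in forelimbs, SD, n = 3 each; -1.39), Alx1 (-1.14) and Emx2 (-0.95) were lower in CD1 hindlimbs and 0 higher. In nulls, 3 were higher and 2 lower at e11.0, and 3 higher and 1 lower at e11.5. At e11.0 Emx2 was higher (0.70) and Tbx15 lower (-1.26), and at e11.5 Tbx15 was lower (-0.69). Of general limb mesenchyme genes, 1 of 9 was higher and 5 lower in CD1 hindlimbs, 5 of 8 were lower and 0 higher in nulls at e11.0, and 3 were higher and 1 lower at e11.5. Muscle precursor genes were lower for 2 of 4 in CD1, 3 of 4 at e11.0 and 6 of 6 at e11.5, with 0 higher by limma. The shares of all genes called lower were 3.46%, 8.41% and 7.96% in the same order. Pax7, one of the 6, exceeded 0.5 CPM in 1 null library and 3 wild type ones, and Tbx5, one of the 5 mesenchyme genes lower in CD1, in 0 hindlimb and 3 forelimb libraries, so both were listed through the group where they were high. Surface ectoderm genes were lower for 1 of 11 in CD1 hindlimbs, and in nulls higher for 6 of 11 at e11.0 and 2 of 11 at e11.5 (5 with edgeR on whole reads). Erythroid genes were higher for 4 of 10 in CD1 hindlimbs and 1 of 11 in nulls at e11.0, with 0 of 11 called by limma, edgeR on whole reads and the authors' deposited table at e11.5 (1 at an unadjusted p under 0.05). Leaving out single libraries moved many of these counts by over 1.5 times, for the ectoderm at e11.0 to 1 without null replicate 2 or 3 or wild type replicate 1 or 3, 2 without null replicate 1 and 10 without wild type replicate 2. The part of these cell types in the Runx2 differences was not tested.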

How the data were processed

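RNA was extracted from limb buds and sequenced in 18 libraries. Reads were aligned with STAR, counted with featureCounts on GRCm38 (mm10) and tested with edgeR, per the submitters' processing notes. Versions and the strand setting are not given in the sources used here. Library preparation was stranded except in replicate 3 at e11.5, per the labels. The authors deposited CPM per library, a log2 fold change and average log2 CPM, a likelihood-ratio score, a p-value and an adjusted p-value per gene, per the file headers. Each table was fitted alone on log2(CPM + 1) with limma 3.58.1 in R 4.3.3 (limma-trend), with terms for group and run (that of replicates 1 and 2 against the other), 3 residual degrees of freedom, two-sided tests, p-values adjusted by Benjamini-Hochberg across every gene of the table, and a threshold of 0.05. Implied reads come from the step of the CPM values and were whole, within 0.01 read, for 100% of values in all 18 libraries. The edgeR 4.0.16 quasi-likelihood test on these reads, with the run term and trimmed-mean scaling, was an alternative. Steps were tested on simulated data. Identifiers matched GENCODE M21 for 13513, 13998 and 13457 of 13540, 14027 and 13478 genes in CD1, at e11.0 and at e11.5.

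The genes and the 12 lists were chosen with earlier results of these data known. The text names the 4 members, up to 4 called genes of each list with the largest change, the 3 genes most like each member and the nearest listed neighbours, and, after values were seen, the other called genes of the lists and some uncalled ones. Some genes counted in the lists are not reported here by name. Replicate numbers in the titles may pair the libraries. In compared groups, libraries with one number departed from their group mean in the same way (correlation 0.686 to 0.939 in CD1, 0.637 to 0.855 at e11.0 and 0.733 to 0.914 at e11.5). Replicate 1 of one group and replicate 2 of the other, from the same run, did so too. Their correlations were 0.748 to 0.852 in CD1, 0.407 to 0.529 at e11.0 and 0.627 to 0.632 at e11.5. In CD1 the correlations thus do not show pairing by number within the shared run. The replicate number entered as a block in one alternative. Other alternatives were pseudocounts of 0.5 and 0.1, a mean CPM of at least 1, no run term, replicates 1 and 2 alone, 3 scalings, the authors' deposited table, and each library left out.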

Additional observations from a re-analysis of the deposited data

How the results depend on the processing

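Without the run term limma called 0 members in each comparison, with 1, 1 and 2 at an unadjusted p under 0.05 in CD1, at e11.0 and at e11.5. Runx2 then had -1.76 in CD1 (adjusted p = 0.194), -0.72 at e11.0 (0.489) and -1.10 at e11.5 (0.138), and Runx1 -0.76 at e11.5 (0.0848), all by limma, when 13, 5 and 11 genes of the tables passed in place of 795, 1843 and 1455. With replicates 1 and 2 alone limma called 0 members at e11.0 (0 at an unadjusted p under 0.05, 1 in the authors' deposited table), where Runx2 had -0.41. With 1 library left out, the members called at e11.0 numbered 0 to 1 and Runx2 ranged from -0.94 to -0.41. Leaving out one replicate 3 removes the other through the run term. The other called values ranged from -1.96 to -1.65 (Runx2, CD1), -1.31 to -0.87 (Runx2, e11.5) and -0.83 to -0.70 (Runx1, e11.5), and stayed called. Uncalled values changed sign: Runx1 in CD1 ranged from -0.23 to 0.016, with 0.0026 at one library, and Runx3 from -0.039 to 0.077, with -0.029 at one. At e11.0 Runx1 was 0.016, 0.018 and 0.047 and Cbfb 0.048, 0.052 and 0.022 under trimmed-mean scaling, median-ratio scaling and the authors' deposited table, and Cbfb 0.020 under upper-quartile scaling. With the replicate block Runx2 had adjusted p of 0.000179, 0.01996 and 0.0110 in CD1, at e11.0 and at e11.5, Runx1 had 0.00448 at e11.5, and the block changed no other call of a member, while genes called at e11.0 numbered 3442. The authors' deposited table called 1689, 2895 and 2644 genes. Replicates 1 and 2 alone gave 471, 199 and 483. With 1 library left out the counts reached from 394 to 1191, 116 to 5273 and 433 to 2627. The edgeR test on whole reads called 881, 1734 and 1630 genes and the same members, with Runx1 at 0.033 and Cbfb at 0.022 at e11.0. Of 170 alternative values for members, 148 kept direction and side of the threshold. Counts for the gene lists moved by over 1.5 times in 216 of 1224 cases. The cause of these changes was not tested. Runx2 at e11.0 had 11 to 128 reads a library.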
